A study of Homo sapiens with 5 samples.

Results

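The aryl hydrocarbon receptor and its best known targets were described in MCF12A cells, an established line of non-tumorigenic epithelial cells from human breast, after long exposure to ethanol or acetaldehyde and after selection in soft agar. The set has 7 genes: the receptor gene AHR, its dimer partner ARNT, the repressor AHRR, the target genes CYP1A1, CYP1B1 and TIPARP, and NFE2L2, the gene of a neighbouring stress regulator. A gene was taken from its brightest probe among those annotated with exactly 1 symbol, and by that rule 6 of the 7 had a value, out of 17651 genes with such a probe in both tables of the series. AHRR has only a probe that also carries another gene's symbol, on both array designs, so no value is given for it. Each of the other 6 has 1 such probe, the same in both tables.

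RNA came from 5 monolayer cultures, 1 Affymetrix Gene ST array each. The first table holds an untreated culture, a culture kept for 4 weeks in 2.5% ethanol and a culture kept for 4 weeks in 1% acetaldehyde. The second table, from another array design, holds a single clone that grew in soft agar after ethanol exposure, labelled as 4 weeks, and the clone's own control, which is untreated but also carries the soft agar tag. The dose for the clone is labelled 2.5% in one place and in millimolar units in another, and is not used here. The labels tie the array design of the clone and its control to exposures of 1 week, which was not resolved, and do not say how the control was handled in soft agar. All cultures shared a medium with horse serum, epidermal growth factor, hydrocortisone, insulin and cholera toxin. With 1 array per group no difference has a replicate check, no test was run, and every value below describes single arrays. Values are intensities on a linear scale, and differences are log2 of one array over another within a table. Levels were not compared across tables. A gene counted as tested where the brighter of both arrays reached the median intensity of its table, 70.2 and 92.0. This floor for dim values is no measured background. Differences of at least 2-fold were counted.

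As background, the receptor is a ligand-activated transcription factor that waits in the cytosol with heat shock protein chaperones. Bound by planar aromatic pollutants or by tryptophan products, it enters the nucleus, pairs with ARNT and binds response elements with the core GCGTG, from which it induces CYP1A1, CYP1B1, TIPARP and AHRR. TIPARP and AHRR then restrain the receptor. In breast epithelium CYP1A1 and CYP1B1 oxidise polycyclic hydrocarbons and oestradiol. NFE2L2 encodes NRF2, which turns on antioxidant genes from its own elements and shares targets with the receptor, NQO1 among them.

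The upstream sequences of the 3 genes that stood furthest below control in the clone are shown because the receptor acts through the response element core, in capitals here wherever it lies on either strand (CACGC where it lies on the opposite strand). Each is the 250 bases before the 5′-most start that RefSeq lists (GRCh38.p14), written 5′ to 3′ on the strand of the gene.
CYP1A1, chr15:74725529-74725778, minus strand: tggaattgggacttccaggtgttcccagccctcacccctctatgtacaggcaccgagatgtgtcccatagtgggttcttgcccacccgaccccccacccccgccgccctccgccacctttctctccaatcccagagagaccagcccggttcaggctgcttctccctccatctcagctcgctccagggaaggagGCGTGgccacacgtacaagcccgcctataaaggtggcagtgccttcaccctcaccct
TIPARP, chr3:156674340-156674589, plus strand: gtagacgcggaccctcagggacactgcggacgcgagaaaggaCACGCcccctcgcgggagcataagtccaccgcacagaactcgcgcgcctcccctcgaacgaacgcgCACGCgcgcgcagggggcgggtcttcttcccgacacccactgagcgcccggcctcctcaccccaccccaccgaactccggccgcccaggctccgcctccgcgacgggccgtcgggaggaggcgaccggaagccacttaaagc
NFE2L2, chr2:177264728-177264977, minus strand: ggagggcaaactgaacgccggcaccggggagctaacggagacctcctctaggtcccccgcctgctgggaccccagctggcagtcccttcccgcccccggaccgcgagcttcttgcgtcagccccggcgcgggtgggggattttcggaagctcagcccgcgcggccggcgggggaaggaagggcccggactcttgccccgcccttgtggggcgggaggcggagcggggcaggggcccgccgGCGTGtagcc

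CYP1A1 held 1 core on its own strand, starting 57 bases before the start of transcription. TIPARP held 2 on the opposite strand, starting 208 and 142 bases before it, and NFE2L2 held 1, starting 10 bases before it. AHRR also held 1, AHR and ARNT held 0, and CYP1B1 was not matched in the table of windows. Of 27305 genes with a window of this length, 31.9% held at least 1 core, so a match is common and describes letters only. Sequence further upstream was not searched. TIPARP had 3 listed windows and NFE2L2 had 2, of which only 1 each was searched. Whether the receptor binds at any core shown was not tested. For the NRF2 element the permissive pattern TGANNNNGC, with N any base, was searched on both strands and stood in 35.5% of the windows. A match to this pattern need not be an NRF2 element. ARNT held 3 matches to it and TIPARP 1, while AHR, AHRR, CYP1A1 and NFE2L2 held 0. The windows of these 6 genes had a G and C content of 62.4% to 79.2%, against a median of 57.6% over all genes.

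Neither the receptor nor its partner reached 2-fold in any comparison. AHR had an intensity of 1438 in the untreated culture, 984 in ethanol and 1194 in acetaldehyde, and 1343 in the clone's control and 1225 in the clone. The untreated culture was the highest of its table and ethanol the lowest. The log2 differences from control were -0.55 in ethanol, -0.27 in acetaldehyde and -0.13 in the clone, none of them 2-fold. At least as low were 5.51%, 3.14% and 44.0% of the genes tested. The last difference is -0.13 as deposited and 0.03 when differences are centred on the median over all probes, which was -0.17 for the clone and 0 in the first table. ARNT, which also pairs with hypoxia factors, had 881 in the untreated culture, 982 in ethanol and 982 in acetaldehyde, and 889 and 1077 in the clone's control and the clone. Its log2 difference was 0.16 in both treated cultures, whose values were identical, and 0.28 in the clone. Identical values are common in the first table, within 1e-06 on the log2 scale. Equal were 43.9% of its probes in ethanol and untreated, 48.2% in acetaldehyde and untreated and 46.5% in acetaldehyde and ethanol. The clone and its control shared 1.02%. The origin of these ties was not tested, and a tie of a named gene was not read as a measured equality. Tied genes stayed among the genes tested, as 30.7% of them in ethanol and 37.9% in acetaldehyde against untreated. The shares and medians over all genes tested in the first table depend on them.

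**Figure D1:**
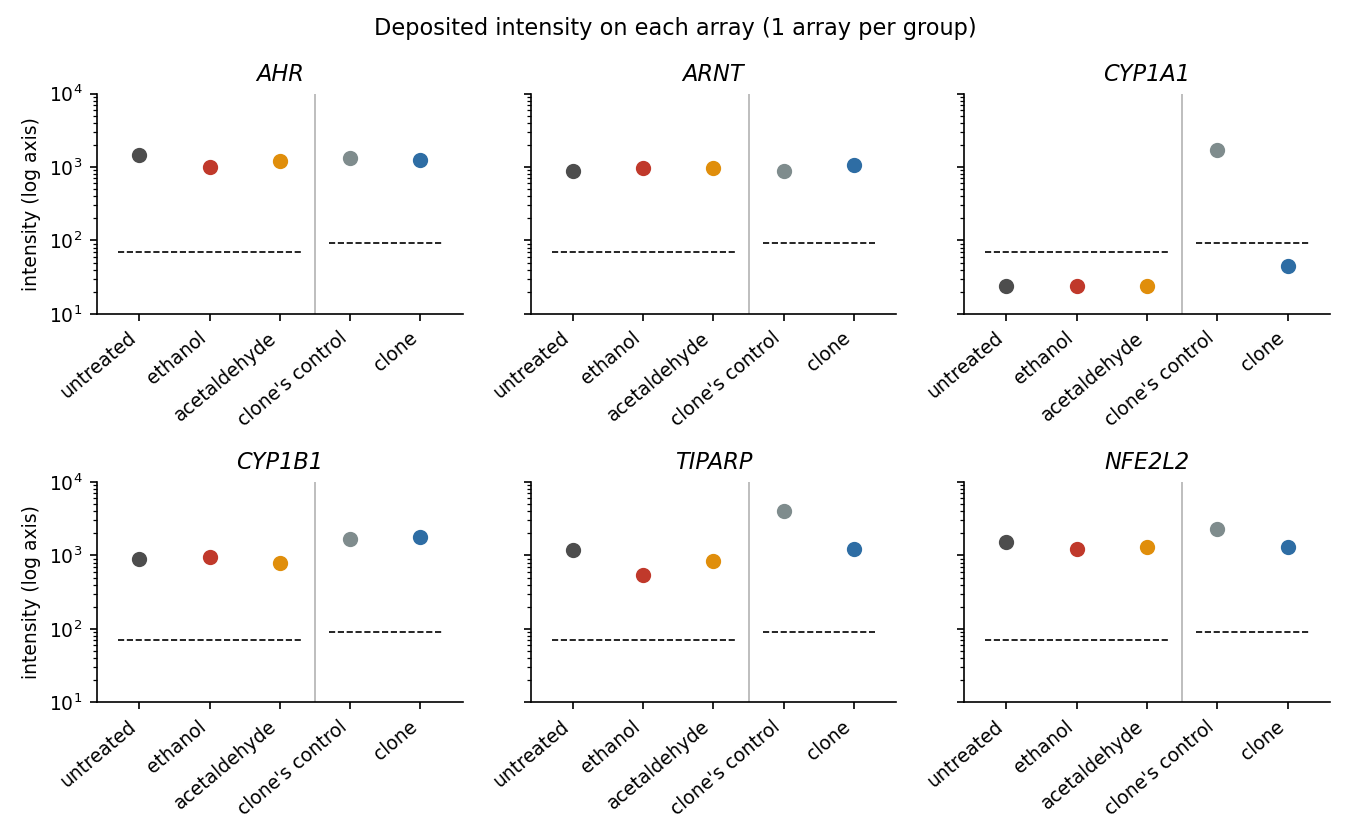
Intensity (log axis) of 6 genes on each of 5 arrays, 1 point per array, with the grey line between the tables that were not compared and the dashed line at each table's median, 70.2 and 92.0. CYP1A1 stands under the dashed line on every array except the clone's control, at 1675, and TIPARP is lower in ethanol (550) and acetaldehyde (835) than in the untreated culture (1182).

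CYP1A1, the classical induced target and the readout by which receptor activity is usually followed, was above the floor on 1 array only. Its intensity was 24.0 in the untreated, ethanol and acetaldehyde cultures alike, under the floor of 70.2. In the second table it was 1675 in the clone's control and 44.9 in the clone, where the floor was 92.0. CYP1A1 was thus at least 18.2-fold lower in the clone than in its control, taking the floor for the clone, and the deposited values differ by -5.22 on the log2 scale. On the deposited values 22 of 12262 genes tested, counting CYP1A1, had a difference as low. That rank rests on the clone's value under the floor, and CYP1A1 was tested only through its bright control. With values raised to the floor the difference was -4.19, for which no rank was computed. The clone and the 3 cultures of the first table were thus all under their floor, and the clone's control, a single array, was the one sample above it. In ethanol and acetaldehyde CYP1A1 could not be judged, since all arrays were under the floor.

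CYP1B1, the sister enzyme, stood near control in every comparison. It had 893 in the untreated culture, 947 in ethanol and 781 in acetaldehyde, and 1675 in the clone's control and 1798 in the clone. The log2 differences from control were 0.09, -0.19 and 0.10. The clone and its control stood close together on this gene, while on CYP1A1 they stood far apart.

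TIPARP, a mono-ADP-ribosyltransferase that feeds back on the receptor, was lower than control in all 3 comparisons, past 2-fold in ethanol and in the clone. Its intensity was 1182 in the untreated culture, 550 in ethanol and 835 in acetaldehyde. The ethanol array was 2.15-fold lower than untreated (log2 difference -1.10) and the acetaldehyde array 1.42-fold lower (-0.50). In the second table it was 4027 in the clone's control and 1215 in the clone, 3.31-fold lower (-1.73). Against all genes tested, 2.10% were at least as low in ethanol, 0.572% in acetaldehyde and 2.14% in the clone. The standard deviation of the differences over genes tested was 0.50, 0.25 and 0.97. Shares from different comparisons are therefore not on the same scale. TIPARP was well above the floor on all 5 arrays. The ethanol and acetaldehyde differences share the untreated array, so they are not separate evidence.

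NFE2L2 stood under 2-fold in every comparison. It had 1503 in the untreated culture, 1227 in ethanol and 1317 in acetaldehyde, and 2297 in the clone's control and 1304 in the clone. The log2 differences were -0.29, -0.19 and -0.82, the last a 1.76-fold lower level. At least as low were 10.5%, 5.78% and 8.10% of the genes tested.

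**Figure D2:**
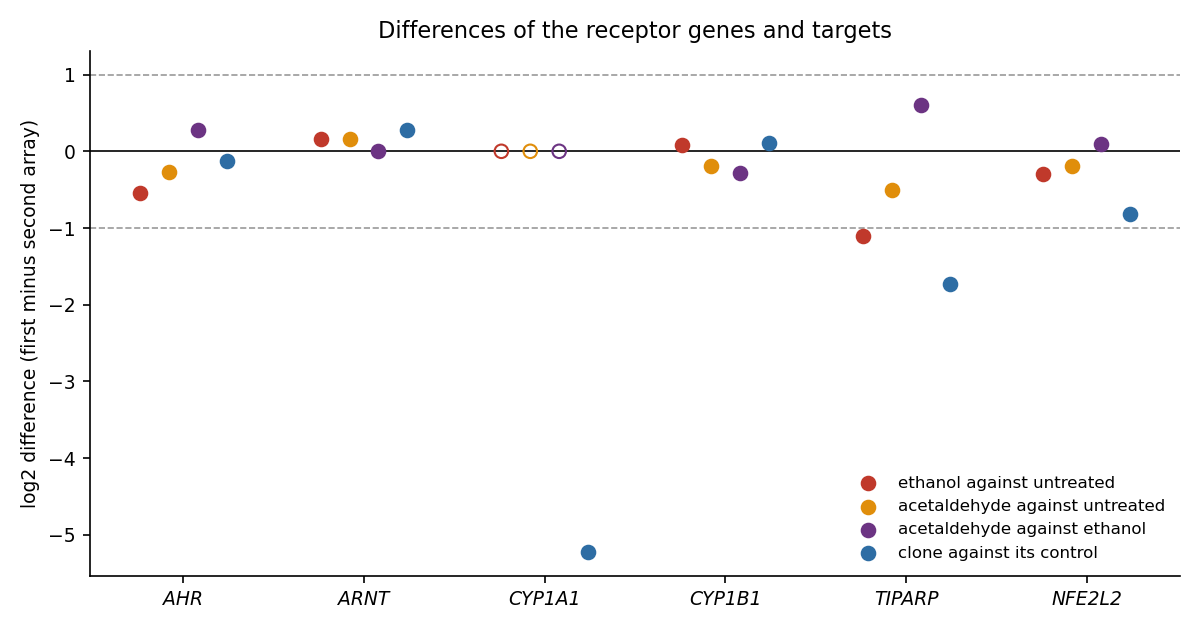
Log2 difference of 6 genes (vertical axis) in 4 comparisons, 1 point each, first array named minus second. Open circles mark CYP1A1 where both arrays were under the floor, and dashed lines mark 2-fold. CYP1A1 in the clone (-5.22) and TIPARP in the clone (-1.73) and in ethanol (-1.10) lie past the lower line.

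Counted together, 1 of the 5 members past the floor, TIPARP, was at least 2-fold lower in ethanol, where 2.44% of 11264 genes tested were lower and 2.63% higher. None of 5 reached 2-fold in acetaldehyde, where 0.0536% of 11194 genes were lower and 1.03% higher. In the clone 2 of 6, CYP1A1 and TIPARP, were at least 2-fold lower, where 5.83% of 12262 genes were lower and 14.7% higher. No member was 2-fold higher in any of these. The median log2 difference of the members past the floor was -0.29 in ethanol, -0.19 in acetaldehyde and -0.47 in the clone, beside medians over all genes tested of 0, 0 and -0.02. The clone's count and median include CYP1A1, which passed the floor only through its bright control and is absent from the other sets. They are therefore not on the same footing. The other members in the clone had -1.73 (TIPARP), -0.82 (NFE2L2), -0.13 (AHR), 0.10 (CYP1B1) and 0.28 (ARNT). With so few genes these counts describe the members and nothing wider.

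**Figure D3:**
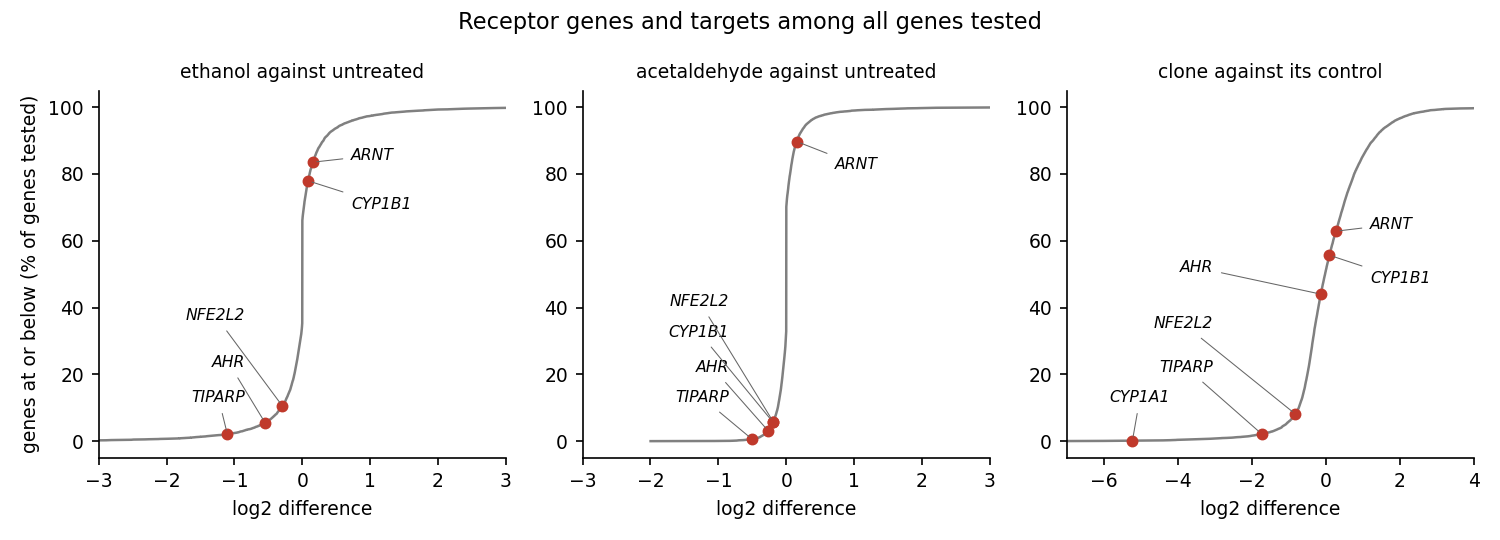
Share of all genes tested (vertical axis, %) at or below each log2 difference (horizontal axis) in 3 comparisons with a control, as a grey curve whose far ends are left out, with the members past the floor as red points. CYP1A1 lies at 0.179% in the clone, a place that rests on the clone's value under the floor. TIPARP lies at 2.10%, 0.572% and 2.14%, and ARNT and CYP1B1 lie on the upper part of the curve in ethanol and the clone.

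The treated cultures were then set against each other, at doses that differ in the labels. TIPARP was 1.52-fold higher in acetaldehyde than in ethanol, a log2 difference of 0.60, and AHR 1.21-fold higher (0.28). NFE2L2 had 0.10, ARNT 0 by identical values and CYP1B1 -0.28. None of 5 reached 2-fold, whereas of 11221 genes 1.85% were higher by 2-fold in acetaldehyde and 0.526% lower.

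The labelled cell type was checked against its markers. Of 8 epithelial markers, 8 were above the floor in every array except the clone, where 4 were. Their summed intensity was 15528 in the untreated culture, 8675 in ethanol and 15995 in acetaldehyde, and 30519 and 10100 in the clone's control and the clone. The sum hides members that differ: in ethanol CDH1 was at 117 against 1114 and DSP at 350 against 2393, whereas KRT8 was at 3068 against 1474 and KRT18 at 1004 against 986. The sum is low on the arrays on which TIPARP was 2-fold lower, and its part in the TIPARP and CYP1A1 values was not tested. The 6 mesenchymal markers summed to 2605, 10216 and 7705 in the first table and to 4423 and 22488 in the second. Of 8 fibroblast markers 3 to 5 were above the floor, with sums of 514 to 589 in the first table and 887 and 1737 in the clone's control and the clone. The 5 adipocyte markers summed to 270, 2547 and 430, then 461 and 1413, with 2 or 3 above the floor. FABP4, a fatty acid carrier, made up most of that sum in ethanol, at 2163, and in the clone, at 962, while ADIPOQ and LPL had identical values on the first 3 arrays, under the floor. Of 4 measured leukocyte markers only CD14 was above the floor, on all 5 arrays, and PTPRC, which marks all leukocytes, was under it with 11.9 to 18.7. Of 4 endothelial markers, KDR in the clone alone was above it. No marker was listed at 0. In a bulk culture, fewer cells of a type and less RNA per cell cannot be told apart.

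Around the members, 8 lists of 187 pathway genes were counted, with 119 of the genes past the floor in ethanol, 116 in acetaldehyde and 121 in the clone. At least 2-fold, 6 were higher and 7 lower in ethanol, 1 higher and 0 lower in acetaldehyde, and 24 higher and 18 lower in the clone. The shares of all genes given above are the background for each. Counts use the deposited values, so a gene counted at 2-fold can have a smaller bound where its dimmer array was under the floor.

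Of the chaperones and coactivators of the receptor, 0 of 13 reached 2-fold in ethanol or acetaldehyde, with a median log2 difference of 0 in both. In the clone 4 of 13 were higher and 1 lower, and the median was 0.53. MED1, a Mediator subunit, was 3.27-fold higher, at 731 against 223, and the coactivators NCOA2 and NCOA1 were 2.34-fold and at least 2.05-fold higher. SP1, a promoter-binding factor, was 2.17-fold lower, at 563 against 1221, and with centring it no longer reached 2-fold. The chaperone gene HSP90AA1 was 2.04-fold higher in the clone, at 3369 against 1654, while its relative HSP90AB1 had a log2 difference of -0.23. PTGES3, which encodes the cochaperone p23, had identical values of 2280 on the first 3 arrays and a log2 difference of -0.23 in the clone.

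The relatives of the receptor, which share its dimerisation domains and include hypoxia and clock factors, had 0 of 8 at 2-fold in ethanol, with a median of -0.34, and 0 of 8 in acetaldehyde. In the clone 1 of 11 was higher and 2 lower. The clock repressor gene PER1 was 3.84-fold lower, at 380 against 1457, BMAL2 at least 1.61-fold lower and CLOCK 2.33-fold higher. HIF1A, the hypoxia factor that also pairs with ARNT, had log2 differences of 0.57 in ethanol, 0.23 in acetaldehyde and 0.85 in the clone, and its relative EPAS1 had -0.45, -0.06 and -0.96.

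Other genes reported as receptor targets were divided. In ethanol 3 of 11 reached 2-fold, each of them lower, and the median was 0. They were TGM1, which cross-links the cornified envelope, at least 3.52-fold lower, the cytokine gene IL1B, at least 3.34-fold lower, and the amino acid transporter gene SLC7A5, 2.35-fold lower at 1677 against 3946. In acetaldehyde 0 of 11 reached 2-fold, with a median of -0.10, and TGM1 and IL1B were at least 5.51-fold and at least 2.67-fold higher than in ethanol. In the clone 2 of 9 were lower and 1 higher, and the median was -0.71. FOS was 4.42-fold lower, SLC7A5 3.44-fold lower at 1359 against 4669, and the adhesion scaffold gene NEDD9 at least 2.58-fold higher. NQO1, the quinone reductase induced by both the receptor and NRF2, stood near control throughout, with log2 differences of 0.12, -0.06 and -0.14 at intensities of 2065 to 2615. Of 19 of these genes with an upstream window, 6 held the receptor's core, a share close to that of all genes.

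Other cytochrome P450 genes were mostly dim. The counts here also include POR, CYB5A and CYB5R3, which are not P450 genes, and 20 of 47 were past the floor in ethanol. Of these 2 were higher and 1 lower. CYP4X1 was at least 2.11-fold higher and CYP7B1, an oxysterol hydroxylase, at least 1.33-fold higher, while CYP4F3, a leukotriene hydroxylase, was 2.82-fold lower at 91.2 against 257. In acetaldehyde 0 of 18 reached 2-fold. In the clone 5 of 23 were higher and 3 lower. CYP4F3 and its family member CYP4F11 were at least 11.0-fold and 5.85-fold lower, the former at 1008 in the control, and CYP4V2, a fatty acid hydroxylase, was at least 3.12-fold higher. CYP4F genes resemble each other in sequence, so probes may share signal between them.

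Enzymes that act on tryptophan and its products, some of which are ligands of the receptor, included a gene that was higher on each treated array. AOX1, which encodes aldehyde oxidase, was at 58.6 in the untreated culture, 465 in ethanol and 245 in acetaldehyde, and at 36.9 and 685 in the clone's control and the clone. Both controls were under their floor, so it was at least 6.61-fold, at least 3.49-fold and at least 7.44-fold higher. In ethanol 1 of 10 genes was higher and 1 lower, in acetaldehyde 1 of 9 higher, and in the clone 4 of 10 higher and 0 lower. KYNU, the kynureninase gene, was 3.36-fold higher in the clone at 2510 against 746, and MAOB, a monoamine oxidase gene, 2.80-fold higher. XDH, the xanthine dehydrogenase gene, is counted in this list although its enzyme acts on purines. It was 3.47-fold lower in ethanol at 167 against 579 and at least 2.60-fold higher in the clone at 240.

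Relatives of TIPARP transfer ADP-ribose and partner enzymes remove it. Of 16 past the floor, 0 reached 2-fold in ethanol or acetaldehyde, with medians of 0 and -0.01. In the clone, where TIPARP was lower, 5 of them were higher and 0 lower, and the median was 0.50. PARP4, of the vault particle, was 5.96-fold higher at 1505 against 253, PARP14 at least 2.42-fold higher, and PARG, the glycohydrolase that removes the chains, at least 2.12-fold higher.

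**Figure D4:**
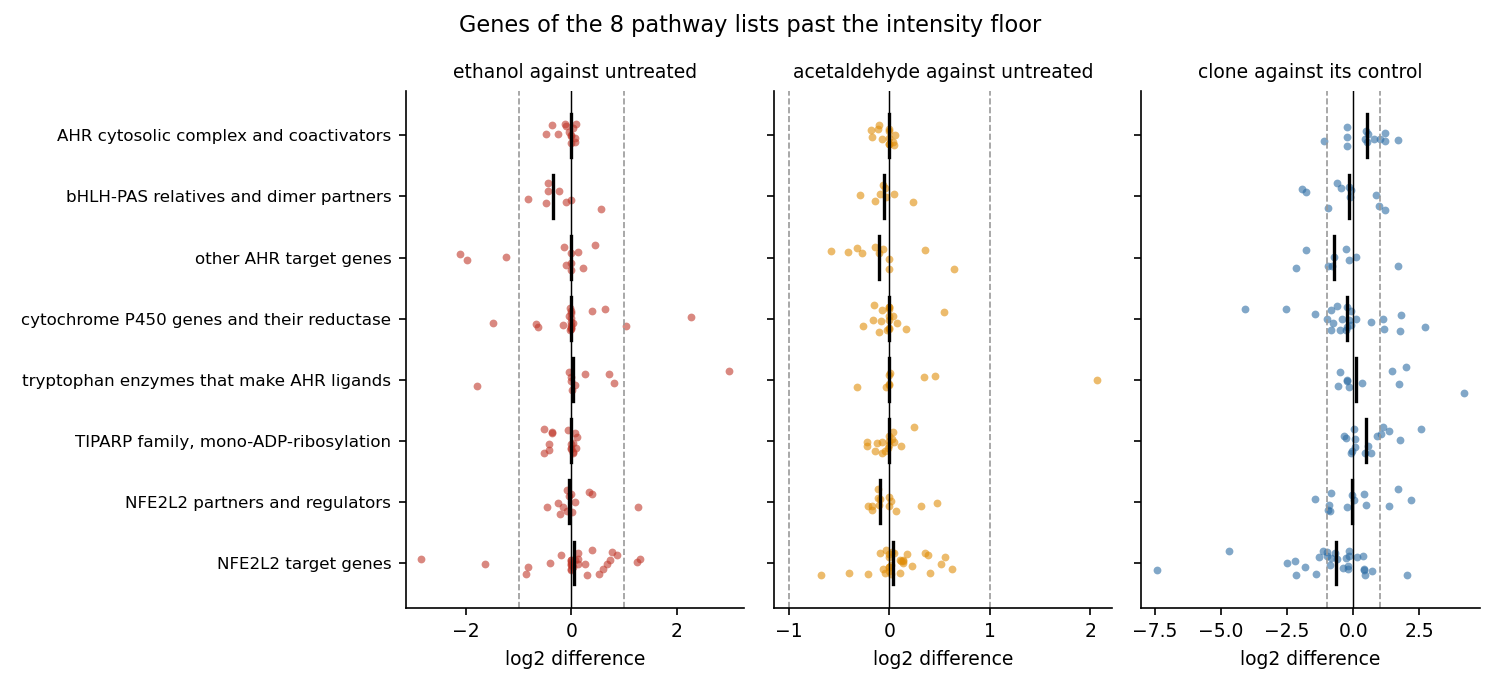
Log2 differences (horizontal axis, whose scale differs between panels) of the genes of 8 pathway lists past the floor, 1 point per gene, with a black bar at each median and dashed lines at 2-fold. In the clone the targets of NRF2 have a median of -0.65 and the relatives of TIPARP one of 0.50.

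Regulators of NRF2 were near control in ethanol and acetaldehyde, with NFE2L3 the 1 gene of 13 past 2-fold in ethanol, 2.39-fold higher at 383 against 160, and 0 of 13 in acetaldehyde. KEAP1, which holds NRF2 for degradation, had identical values of 337 in the first table and a log2 difference of 0.02 in the clone. In the clone 3 of 13 were higher and 1 lower. BACH1, a repressor at NRF2 elements, was 2.71-fold lower at 194 against 526, and BTRC, a ubiquitin ligase subunit, at least 2.46-fold higher. NFE2L3 was higher in the clone too, at least 3.20-fold, and PALB2 was 2.55-fold higher.

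Among the targets of NRF2, 2 of 30 were higher in ethanol and 2 lower around a median of 0.05, and in acetaldehyde 0 of 30 reached 2-fold, with a median of 0.04. AKR1C1 and AKR1C2, aldo-keto reductase genes that reduce steroids, were 2.46-fold and 2.36-fold higher in ethanol. AKR1B10, another reductase gene, was at least 4.36-fold lower and SLC7A11, the cystine importer gene, 3.12-fold lower at 281 against 877. In the clone 9 of 28 were past 2-fold downward and 1 upward, around a median of -0.65. AKR1B10 was at least 32.7-fold lower, at 3013 in the control, and GPX2, an epithelial glutathione peroxidase gene, at least 15.0-fold lower, at 1381 in the control. AKR1C1 and AKR1C2 were 5.66-fold and 4.56-fold lower, at 701 against 3967 and 1066 against 4864. These paralogs are nearly identical, and signal may be shared between their probes. GCLC, the catalytic subunit of glutathione synthesis, had log2 differences of -0.82, -0.41 and -0.83. HMOX1, which NRF2 and BACH1 control in opposite directions, had 0.01, 0.02 and -0.17. HMOX1 was dim in the first table, at 72.9 in the untreated culture, 73.5 in ethanol and 74.1 in acetaldehyde, just above the floor. Its differences in ethanol and acetaldehyde therefore do not show that it was unchanged. In the second table HMOX1 was at 149 in the clone against 167 in its control. Of 22 targets with an upstream window, 12 held the permissive pattern searched for the NRF2 element, beside 35.5% of all windows.

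Genes whose pattern was most like that of a member were ranked by the distance between their 3 log2 differences from control, over 5 arrays, among genes past the floor in both tables. For TIPARP the nearest of 10508 genes was SLC7A5, at a distance of 0.16, with -1.23, -0.42 and -1.78 in ethanol, acetaldehyde and the clone. It was followed by AP1M2, SLC3A2, PFKFB2 and C1orf210, at 0.18, 0.21, 0.21 and 0.23. SLC3A2 encodes the heavy chain that pairs with the SLC7A5 transporter, and SLC7A5 is also on the list of receptor targets. The distances rest on single arrays, and the ethanol and acetaldehyde differences share the untreated array. A link of these genes through the receptor was not tested. No such ranking is given for CYP1A1, since its values lay under the floor on 4 of the 5 arrays and the distances would rest on them.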

How the data were processed

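Affymetrix Gene ST arrays measured RNA of 5 MCF12A cultures. The authors deposited linear intensity values made with RMA, per the submitters' processing notes. The sources used here give neither its version nor a genome build. Such processing subtracts background, normalises arrays jointly and summarises each probe set, which can compress low signals. The 2 tables, of 33297 probes each, were treated as separate. Of these probes, 19181 and 19460 had 1 symbol in the platform annotation, 2055 and 1754 several and 12061 and 12083 none.

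Log2 was taken in Python 3.11.15 (numpy 2.4.6, pandas 2.3.3). A gene counted as tested where the brighter array reached the table median, and as different at 2-fold. Where the dimmer array lay under that floor, the fold was computed against the floor and written as a lower bound. Named were the members, up to 4 genes per list and comparison past 2-fold, and the 5 genes most alike for TIPARP. HSP90AA1, HSP90AB1, PTGES3, HIF1A, EPAS1, NQO1, KEAP1, GCLC and HMOX1 were named after their values were seen. The 7 members and the gene lists were chosen with earlier results of these data known. The calculations were tested on simulated data. There were 7 alternatives, covering floor, fold, centring, scaling and probe choice. Upstream windows come from RefSeq. P-values need replicates and were not computed.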

Additional observations from a re-analysis of the deposited data

Results flagged for a closer look

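Among the members and the pathway genes, 3 stood past 2-fold in opposite directions in ethanol and in the clone, each against its own control. AKR1C1 had a log2 difference of 1.30 in ethanol and -2.50 in the clone. AKR1C2 had 1.24 in ethanol and -2.19 in the clone. XDH had -1.80 in ethanol and 1.99 in the clone, where its control was under the floor. Of 10503 genes tested in both comparisons, 6 stood past 2-fold in opposite directions and 425 in the same direction. The differences between the comparisons were not tested.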

How the results depend on the processing

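No paired analysis was possible because each group has 1 array. Of 147 log2 differences of members recomputed under the 7 alternatives, 146 moved by less than 1.5-fold. The exception was CYP1A1 in the clone, at -4.19 with values under the floor raised to it. Most of these outcomes were fixed in advance, so the count is no check of robustness. Floor percentile and fold do not enter a difference, and each member has only 1 probe to average. Centring shifted differences by 0 in the first table and by less than 1.5-fold in the clone. AHR in the clone changed sign with centring, at 0.03, and was not 2-fold under any alternative. Of 56 counts of members, 55 stayed within 1.5 times. Most of these counts were 0 at the main setting and stayed 0, so this too is no check of robustness. At 1.5-fold the lower members in the clone numbered 3, with NFE2L2 added, against 2 at 2-fold. At 1.5-fold, 1 member, TIPARP, counted as higher in acetaldehyde than in ethanol, against 0 at 2-fold. At 1.5-fold the counts over all genes were 597 higher and 576 lower in ethanol, 242 and 46 in acetaldehyde, 424 and 249 for acetaldehyde against ethanol, and 3144 and 1867 in the clone. Among 448 counts over the pathway lists 30 moved past 1.5 times. Of these, the lower targets of NRF2 in the clone numbered 15 at 1.5-fold, and the higher targets in ethanol numbered 1 when all probes of a gene were averaged. SP1 in the clone was no longer 2-fold lower with centring. The self-made floor and a single array per group limit every value, and no spread between cultures is known.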
